A study of Homo sapiens with 6 samples.

Results

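The factors described here are 46 proteins that work in the nucleolus to make ribosomes. They were taken by symbol from the array's annotation, which named at least 1 probe for 43 of them (62 probes). All 43 passed the filter on dim probes and were tested among 14145 genes, while WDR43, GNL3 and EBNA1BP2 were not analysed here. RNA came from SKOV3ip1, an established line derived from human SKOV3 ovarian carcinoma cells, and was hybridised to single-colour Illumina bead arrays. Cells on 3 arrays had received a small interfering RNA against the transcription factor STAT3 (siSTAT3), and cells on 3 arrays a control small interfering RNA (siCon). Both groups are therefore transfected cells of 1 line, and the dose, the time after transfection and the number of STAT3 sequences targeted are not given in the sources used here. Nothing in the labels says whether replicates were grown separately, and the p-values then describe sample-to-sample spread alone, possibly of technical origin. The question put to the data is how transcript levels differ once STAT3 has been knocked down.

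Ribosome synthesis starts when RNA polymerase I copies ribosomal DNA into a long precursor RNA. Small nucleolar RNA-protein particles modify that precursor, the box C/D type by methylating ribose and the box H/ACA type by converting uridine to pseudouridine, and large sets of assembly factors then fold and cut it into the small and large subunits. Many of these genes are known targets of the transcription factor MYC, which binds the E-box hexamer CACGTG, and their transcripts are often abundant in growing tumour cells. STAT proteins bind a palindrome of the form TTCNNNGAA.

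Promoters of 6 of the factors are shown because they carry, or lack, these motifs. They are RefSeq sequences of assembly GRCh38.p14, running 5′ to 3′ on the gene's strand from 250 bases before to 50 bases after the gene start, and capitals mark CACGTG or TTCNNNGAA. FBL, NOP10, UTP18 and MYBBP1A hold the E-box, POLR1B holds the STAT-type motif, and POLR1C, the factor with the largest positive change, holds neither.
FBL (chr19:39846330-39846629, minus strand): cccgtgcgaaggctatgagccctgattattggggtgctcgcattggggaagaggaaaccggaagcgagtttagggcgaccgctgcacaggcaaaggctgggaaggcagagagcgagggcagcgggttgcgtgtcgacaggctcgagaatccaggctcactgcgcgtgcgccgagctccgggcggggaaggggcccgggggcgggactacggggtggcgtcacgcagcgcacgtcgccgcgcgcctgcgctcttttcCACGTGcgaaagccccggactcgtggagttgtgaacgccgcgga
NOP10 (chr15:34343087-34343386, minus strand): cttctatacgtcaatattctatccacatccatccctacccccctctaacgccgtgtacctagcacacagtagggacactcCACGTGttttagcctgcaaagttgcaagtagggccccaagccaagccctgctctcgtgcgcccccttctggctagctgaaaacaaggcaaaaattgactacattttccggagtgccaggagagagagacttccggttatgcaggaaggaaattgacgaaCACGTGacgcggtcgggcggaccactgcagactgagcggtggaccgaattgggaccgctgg
UTP18 (chr17:51260296-51260595, plus strand): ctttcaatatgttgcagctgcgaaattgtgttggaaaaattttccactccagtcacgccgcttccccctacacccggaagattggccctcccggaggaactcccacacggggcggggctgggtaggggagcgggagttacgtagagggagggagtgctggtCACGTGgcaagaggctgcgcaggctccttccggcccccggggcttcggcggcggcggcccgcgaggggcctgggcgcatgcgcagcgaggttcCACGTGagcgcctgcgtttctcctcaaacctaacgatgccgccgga
MYBBP1A (chr17:4555335-4555634, minus strand): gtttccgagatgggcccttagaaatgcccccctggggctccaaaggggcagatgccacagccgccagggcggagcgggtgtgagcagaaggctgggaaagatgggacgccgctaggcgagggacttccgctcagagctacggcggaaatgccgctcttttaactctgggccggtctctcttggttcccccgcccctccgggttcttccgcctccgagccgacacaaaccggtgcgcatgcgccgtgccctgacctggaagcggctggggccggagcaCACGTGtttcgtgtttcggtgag
POLR1B (chr2:112541786-112542085, plus strand): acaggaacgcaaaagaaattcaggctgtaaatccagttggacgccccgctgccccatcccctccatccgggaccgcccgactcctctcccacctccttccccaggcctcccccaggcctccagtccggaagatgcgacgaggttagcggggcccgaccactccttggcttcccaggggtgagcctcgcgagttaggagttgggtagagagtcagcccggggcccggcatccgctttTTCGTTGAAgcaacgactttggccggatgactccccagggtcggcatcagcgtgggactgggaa
POLR1C (chr6:43516839-43517138, plus strand): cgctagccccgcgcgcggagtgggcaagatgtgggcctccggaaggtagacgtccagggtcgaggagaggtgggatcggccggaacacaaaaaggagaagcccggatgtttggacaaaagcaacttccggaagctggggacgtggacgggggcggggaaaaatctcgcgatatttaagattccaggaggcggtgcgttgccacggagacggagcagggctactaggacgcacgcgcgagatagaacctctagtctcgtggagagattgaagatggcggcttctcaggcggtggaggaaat

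RefSeq promoters were at hand for 36 of the 43 tested factors (not for NOP58, NOLC1, BOP1, RRP1B, RRP12, RRS1 and TCOF1). At the first listed start of each gene, CACGTG was present in 15 of the 36 promoters (41.7%), against 1076 of 11368 promoters of tested genes (9.47%) and 7.43% of all 27305 genes in the table. The hexamer reads the same on both strands, so 1 search covers both. Counting every listed start, 17 of 36 factors (47.2%) had it, against 11.7% of tested genes. Base composition hardly differed, with a median GC content of 63.8% in the factors' promoters and 64.0% in those of tested genes, and a median of 25 CpG dinucleotides in each. The hexamers lay close to the start: 14 of the 15 promoters had one within 50 bases of it, against 433 of 1076 among tested genes. The first 50 transcribed bases alone held it in 10 of 36 factors (27.8%), against 1.13% of tested promoters. Small subunit factors had it in 8 of 14 promoters, and the RNA polymerase I subunits in 0 of 3. TTCNNNGAA, also the same on both strands, was found in 1 of 36 promoters, that of POLR1B (2.78%), against 6.59% of tested promoters. These matches are descriptions of letters in a window and do not show that a factor binds there.

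**Figure D1:**
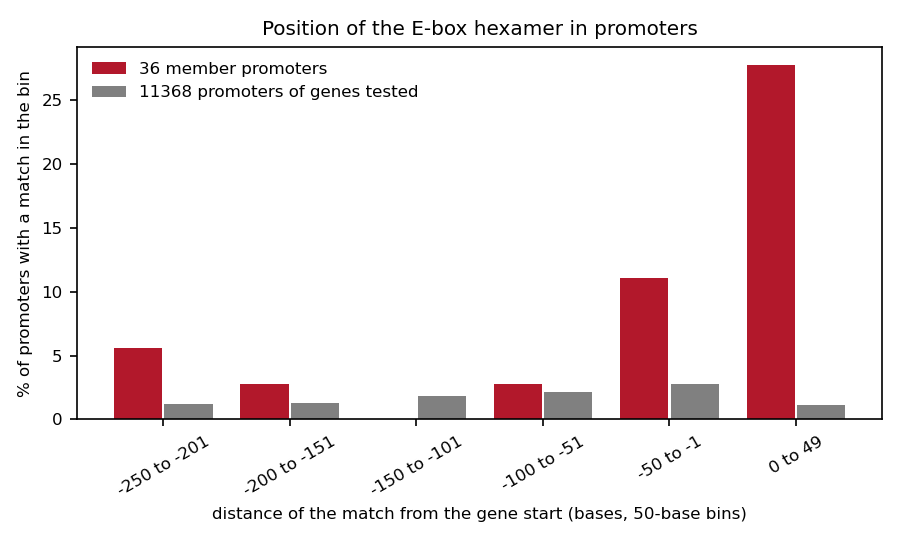
Share of promoters (vertical axis, percent) with a CACGTG match that begins in each 50-base bin of distance from the gene start (horizontal axis, negative before the start, 0 the first transcribed base). Red bars are the 36 factors' promoters and grey bars the 11368 promoters of tested genes. In the bin that begins at the start the shares were 27.8% and 1.13%.

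Before the comparison, 4 facts on the arrays apply. STAT3 itself was 589, 549 and 667 on siSTAT3 arrays 1 to 3, against 2778, 2241 and 2544 on siCon arrays 1 to 3 (normalised intensity), a log2 change of -2.07 ± 0.12 (SE; limma adjusted p = 2.44e-07, n = 3 each), with no overlap on any of its 3 probes. Of 10 markers of epithelial ovarian carcinoma cells, 8 had an intensity over 300, WT1 and MUC16 being near background, and no leukocyte, endothelial or fibroblast marker with a probe (12 in all) did so; the summed signal of the carcinoma markers was 16580.1 to 18119 on siSTAT3 arrays and 16524 to 18285 on siCon arrays. The array of siCon replicate 3 stood apart, with a score of -23.8 on the first principal component, against 7.34 to 9.77 on siSTAT3 arrays and -1.18 and 0.42 on the other siCon arrays. Median unnormalised intensity was 93.5 to 97.1 on siSTAT3 arrays and 93.0 to 95.9 on siCon arrays, and 94.8 after normalisation. No background was subtracted here, and any that remains in the deposited values makes the fold of a probe near that level smaller.

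None of the 43 nucleolar factors passed the threshold after STAT3 knockdown (limma with Benjamini-Hochberg adjustment over all genes, threshold 0.05), where 1.46% of all tested genes did, 0.396% higher (56 genes) and 1.07% lower (151 genes). By each factor's brightest probe, the smallest adjusted p was 0.199, that of POLR1C. At an unadjusted p under 0.05 there were 2 of 43 factors, POLR1C, which was higher, and RRP12, which was lower (4.65%), where the share over all genes was 12.1%, 6.23% higher and 5.87% lower. The groups did not overlap for 5 of 43 factors (11.6%), 1 higher and 4 lower in siSTAT3 cells, where the share over all genes was 17.2%, 8.63% higher and 8.56% lower. POLR1C was the higher one, and RRP1B, NOC2L, NOC4L and MYBBP1A were the lower ones. NOC4L had a log2 change of -0.12, and its dimmer probes, ILMN_1703013 and ILMN_1717805, gave -0.14 and -0.0054 with overlap. The median log2 change was -0.03 over the factors and 0.01 over all genes, with 20 factors above 0 and 23 below. By each factor's brightest probe the changes ran from -0.26 to 0.33, and 6 of 43 exceeded 0.2 in size (14.0%), as did 19.1% of all genes.

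The same held under other processing, where again 0 factors passed. The share of all genes that passed was then 0.976% under median scaling, 1.39% with the processed values, 1.49% with normexp, 1.23% without a filter and 1.8% with the 60th percentile filter. It was 1.31% with the mean of a gene's probes, 1.2% with every probe on its own, 1.38% with an intensity trend, 3.09% with array weights and 2.0% with the replicate block. With 1 array left out it was 0.46%, 0.58% and 0.431% for siSTAT3 replicates 1, 2 and 3, and 0.99%, 1.48% and 2.88% for siCon replicates 1, 2 and 3. Groups without overlap made up 15.4% to 18.7% of all genes with all arrays (16.3% under median scaling, 16.9% and 16.6% with probes averaged and kept apart). With 1 array left out they made up 25.3%, 25.8% and 25.4% for siSTAT3 replicates 1, 2 and 3, and 27.4%, 28.3% and 30.6% for siCon replicates 1, 2 and 3.

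The intervals show what size of change these arrays leave room for. The 95% interval of the change lay inside a 1.5-fold change in either direction for 42 of 43 factors, the exception being NHP2, and inside a 1.2-fold change for 3. Over all tested genes 93.9% lay inside the 1.5-fold range. The standard error of the log2 change was 0.10 to 0.19 over the factors, with a median of 0.11, and the median over all genes was also 0.11. Differences of around 1.2-fold were therefore not detectable for most of the factors with 3 arrays a group, and larger ones could also miss the threshold. Among other ribosome biogenesis genes, POLR1G at 1.37-fold (limma adjusted p = 0.136) and RAN at 1.49-fold (0.065) were not called in the main fit. ERI1 at 1.54-fold was called there (limma adjusted p = 0.029). With array weights, where 3.09% of all genes passed, POLR1G and RAN were both called. RAN was also called without siCon replicate 1 (0.99% of all genes) and POLR1G without siCon replicate 3 (2.88%).

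**Figure D2:**
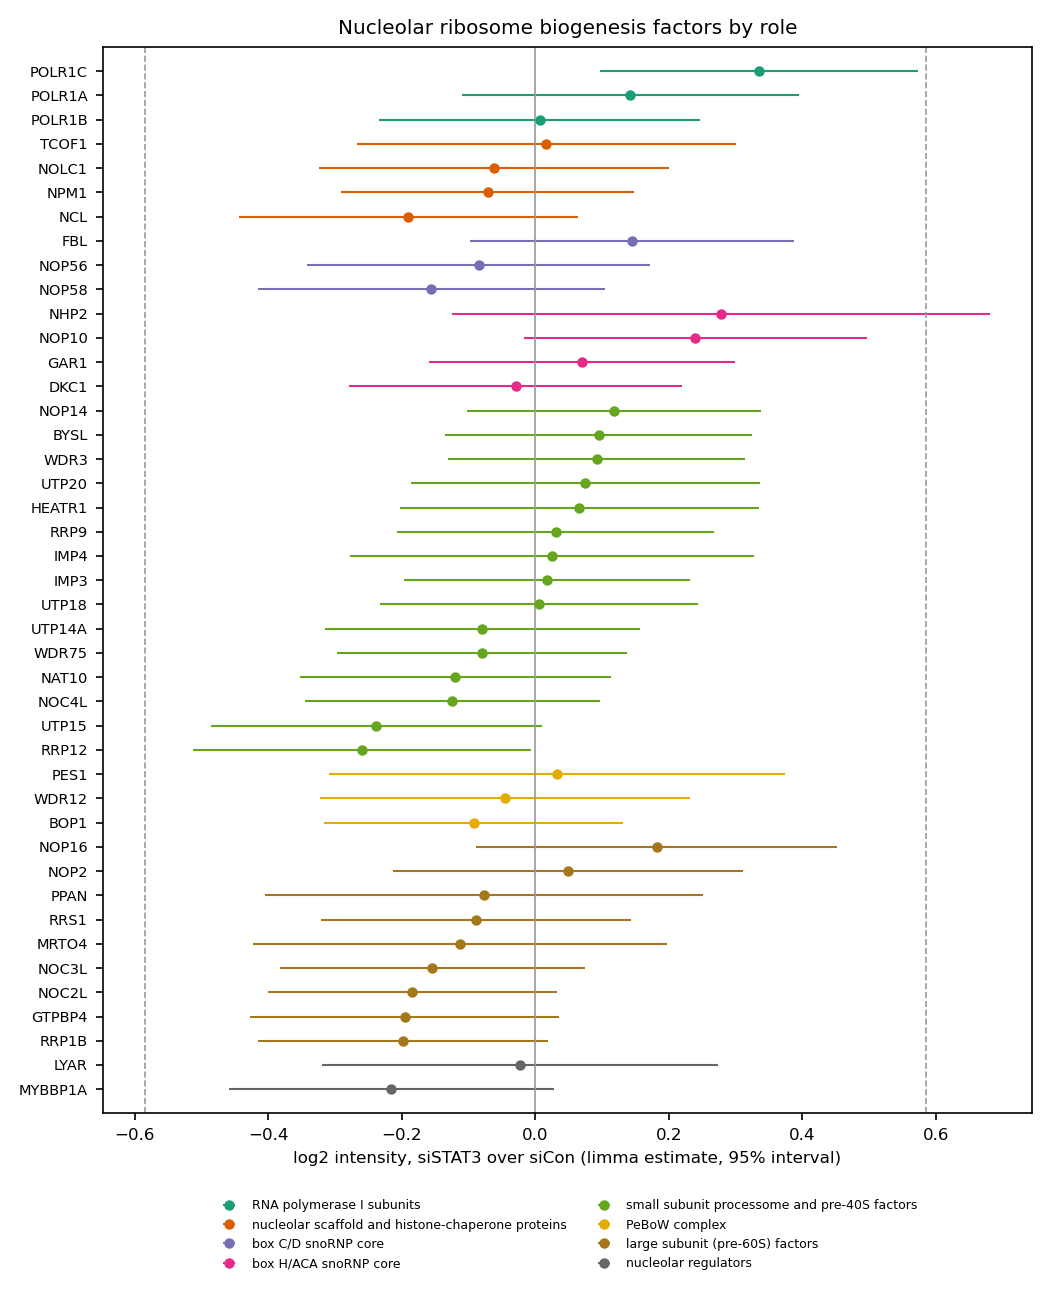
Log2 change of each of the 43 factors, siSTAT3 over siCon (points), with its 95% interval from limma (bars), coloured and grouped by role; dashed lines mark a 1.5-fold change in either direction. The points run from -0.26 for RRP12 to 0.33 for POLR1C, and the interval of NHP2 is the 1 that crosses a dashed line.

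RNA polymerase I makes the ribosomal precursor RNA. POLR1C, a subunit that RNA polymerases I and III share, was 1117, 1154 and 1057 on siSTAT3 arrays, against 985, 885 and 780.0 on siCon arrays. Its 3 siSTAT3 values all lay above the siCon values, by a log2 change of 0.33 (95% interval 0.10 to 0.57, limma adjusted p = 0.199). A second POLR1C probe, ILMN_1767219, gave -0.05 with overlapping groups, and averaging the probes gave 0.14, so the higher signal belongs to 1 of its 2 probes. POLR1A, the largest subunit, was 122, 98.6 and 99.4 on siSTAT3 arrays, against 101, 86.0 and 103 on siCon arrays, near the background level. POLR1B, the second largest subunit, was 139.6, 137 and 167 on siSTAT3 arrays, against 158, 145 and 138 on siCon arrays, with overlap and a log2 change of 0.01. Its other probe gave -0.14.

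The abundant nucleolar proteins showed no call. Nucleolin (NCL), which binds precursor RNA and nucleolar chromatin, was 6882, 7008 and 7344 on siSTAT3 arrays, against 8516, 6789 and 9103 on siCon arrays. The siCon arrays spread widely around the siSTAT3 ones, and the log2 change was -0.19 (interval -0.44 to 0.06), with -0.18 on the dimmer probe ILMN_1695422. The NCL change was -0.32 without siCon replicate 2, where the groups no longer overlapped, and -0.10 without siCon replicate 3. NPM1, the histone and ribosome chaperone nucleophosmin, was represented by 1 probe at 90.7, 93.5 and 94.7 on siSTAT3 arrays and 97.1, 105 and 91.3 on siCon arrays. That is the background level, so these arrays say little about NPM1. TCOF1, the treacle protein that links RNA polymerase I to early processing, was 111, 91.4 and 93.9 on siSTAT3 arrays, against 115, 99.4 and 80.2 on siCon arrays, and its other probes were as close to background. NOLC1, a chaperone of small nucleolar particles, had a log2 change of -0.06.

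Core proteins of the box C/D particle include the methyltransferase FBL and the scaffold proteins NOP56 and NOP58. FBL was 3679.92, 4044 and 3840.35 on siSTAT3 arrays, against 3679.92, 3816 and 3013 on siCon arrays, a log2 change of 0.14 (interval -0.10 to 0.39). The low siCon replicate 3 value carried most of the FBL change, which was 0.040 without that array. NOP58 was 1138, 1196 and 1397 on siSTAT3 arrays, against 1196, 1542 and 1424 on siCon arrays, a log2 change of -0.16. These 3 proteins of the particle thus differed in sign, and each had overlapping groups. NOP56 was 3635, 4284 and 3701 on siSTAT3 arrays, against 4519, 4334 and 3510.25 on siCon arrays. Its 3 probes gave -0.08, -0.17 and 0.03.

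In the box H/ACA particle, which holds the pseudouridine synthase DKC1 with GAR1, NHP2 and NOP10, 3 of 4 members lay above 0, with a median log2 change of 0.15. NOP10, the smallest of these proteins, was 7433, 8218 and 7279 on siSTAT3 arrays, against 7623, 6238 and 5677 on siCon arrays (0.24, interval -0.02 to 0.50, limma adjusted p = 0.46). The NOP10 change was 0.36 without siCon replicate 1, with no overlap, and 0.15 without siCon replicate 3. NHP2, the RNA-binding member, was 1007, 1291 and 1243 on siSTAT3 arrays, against 1036, 1323 and 662 on siCon arrays. The low value on siCon replicate 3 set the NHP2 difference: it was 0.28 with all arrays, 0.0038 without that one and 0.50 without siCon replicate 2. Its other probe, ILMN_2365544, was lowest on the same array, at 637 against 907 and 923 on the other siCon arrays. Without siCon replicate 3 the median of the particle's members was 0.03.

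**Figure D3:**
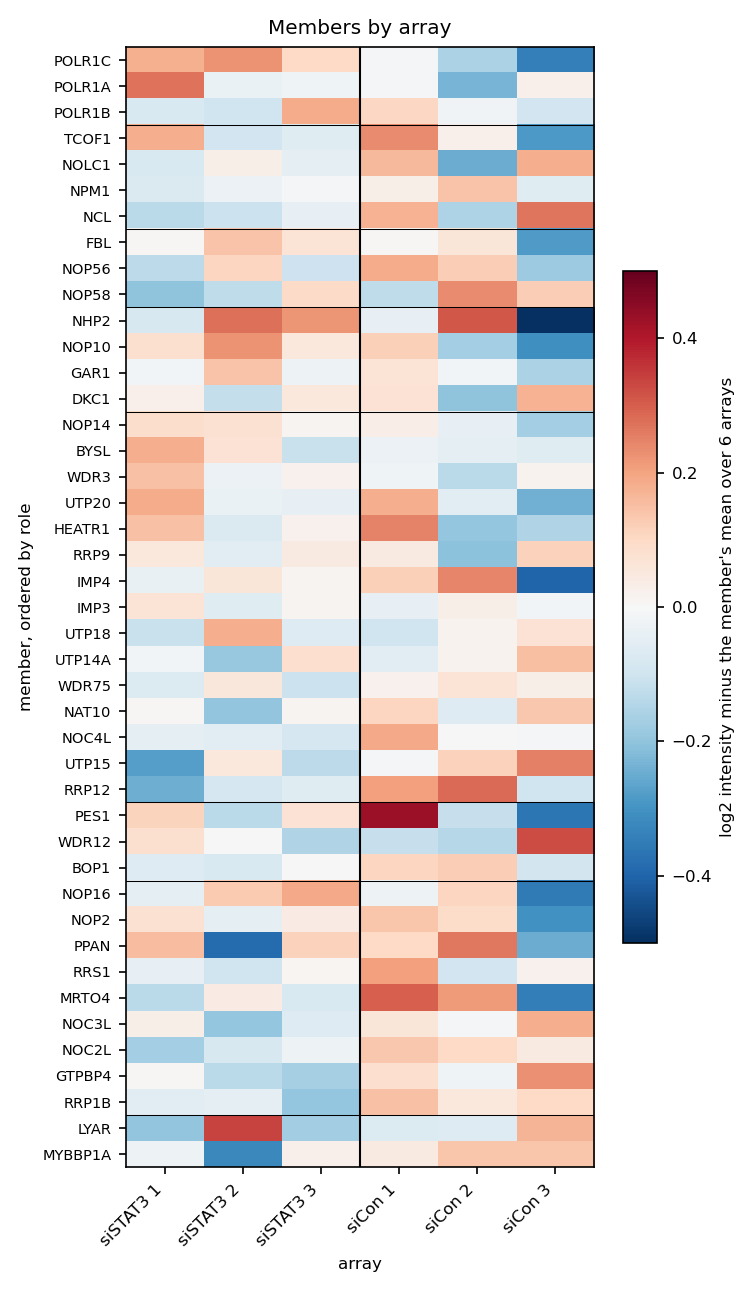
Log2 intensity of each factor on each array minus its mean over the 6 arrays (colour, from blue for lower to red for higher), with factors in rows by role and arrays in columns, siSTAT3 left of siCon. The column of siCon replicate 3 holds many of the strongest colours of both signs, among them the low values of NHP2, IMP4, NOP16 and MRTO4.

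The small subunit factors, most of them parts of the processome that forms on the precursor RNA, were split between 9 above and 6 below 0 among 15 tested, with a median of 0.02. RRP12, which acts in the nuclear export and maturation of precursor subunits, was 216, 241 and 245 on siSTAT3 arrays, against 294, 311 and 238 on siCon arrays. By the brightest probes it had the lowest change of all factors (-0.26, interval -0.51 to -0.01, limma adjusted p = 0.40). It had 1 siCon value inside the siSTAT3 range. Without siCon replicate 3 its groups no longer overlapped and the change was -0.37 (limma adjusted p = 0.066). UTP15, a subunit of the processome's first complex to join the precursor RNA, was 233, 293 and 258 on siSTAT3 arrays, against 281, 306 and 337 on siCon arrays (-0.24, adjusted p = 0.44 in limma). The RNA acetyltransferase NAT10 had a log2 change of -0.12, the scaffold HEATR1 0.07, and the core protein IMP3 0.02. UTP18, whose promoter holds a pair of E-boxes, had a log2 change of 0.01. UTP20, a large scaffold of the processome, was 167, 143 and 143 on siSTAT3 arrays, against 166, 142 and 124 on siCon arrays (0.07). WDR3 and the dimmer UTP20 probes lay near background.

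In the PeBoW complex, which is needed to process the large subunit RNA, the scaffold BOP1 was 3747, 3718 and 3922 on siSTAT3 arrays, against 4223, 4265 and 3674 on siCon arrays (-0.09). WDR12 was 1366, 1295 and 1165 on siSTAT3 arrays, against 1194, 1170.51 and 1618 on siCon arrays (-0.04), and the third subunit, PES1, had a log2 change of 0.03. The SD was larger in siCon than in siSTAT3 for all 3 subunits. Of the 2 tested WDR12 probes, the dimmer gave -0.10.

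Among large subunit factors 7 of 9 lay below 0, with a median log2 change of -0.11, and none passed. RRP1B, a nucleolar protein of the large subunit pathway, was 469.76, 471 and 427 on siSTAT3 arrays, against 539.98, 506 and 522 on siCon arrays. Its siSTAT3 values all lay below the siCon values (-0.20, interval -0.42 to 0.02, limma adjusted p = 0.47). NOC2L, a precursor transport factor that also represses transcription, did likewise at 156, 166 and 172 on siSTAT3 arrays, against 192, 188 and 181 on siCon arrays (-0.18). GTPBP4, a GTPase of large subunit assembly, was 4372, 3965 and 3878 on siSTAT3 arrays, against 4617, 4287 and 5103 on siCon arrays (-0.20), with overlap. MRTO4, a large subunit factor related to the ribosomal stalk protein, was singled out after its values were seen. It was 650, 735 and 677 on siSTAT3 arrays, against 878, 827 and 562 on siCon arrays. With all arrays its change was -0.11, and the 3 control arrays decided its size and sign: it was 0.0097 without siCon replicate 1, -0.034 without siCon replicate 2 and -0.31 without siCon replicate 3 (limma adjusted p = 0.14 in the last). NOP16 was the highest of this set at 0.18, and the RNA methyltransferase NOP2 was 1711, 1572 and 1669 on siSTAT3 arrays, against 1785, 1727 and 1315 on siCon arrays. That brightest NOP2 probe gave 0.05. The dim probe ILMN_2328433 gave -0.35 without overlap (127, 131 and 106 on siSTAT3 arrays, against 158, 156 and 150.09 on siCon arrays). Its limma adjusted p was 0.169 with every probe on its own.

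The remaining regulators were MYBBP1A and LYAR. MYBBP1A, a nucleolar protein that binds the transcription factor MYB, was 117, 95.5 and 122 on siSTAT3 arrays, against 123, 132 and 132 on siCon arrays, without overlap but close to background (-0.22). LYAR, a nucleolar zinc finger protein, was 1137, 1649.74 and 1156 on siSTAT3 arrays, against 1243, 1247 and 1466 on siCon arrays. Its siSTAT3 replicate 2 value was the highest of the 6, and the change was -0.02. Its second probe, ILMN_1764362, gave -0.18 without overlap.

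**Figure D4:**
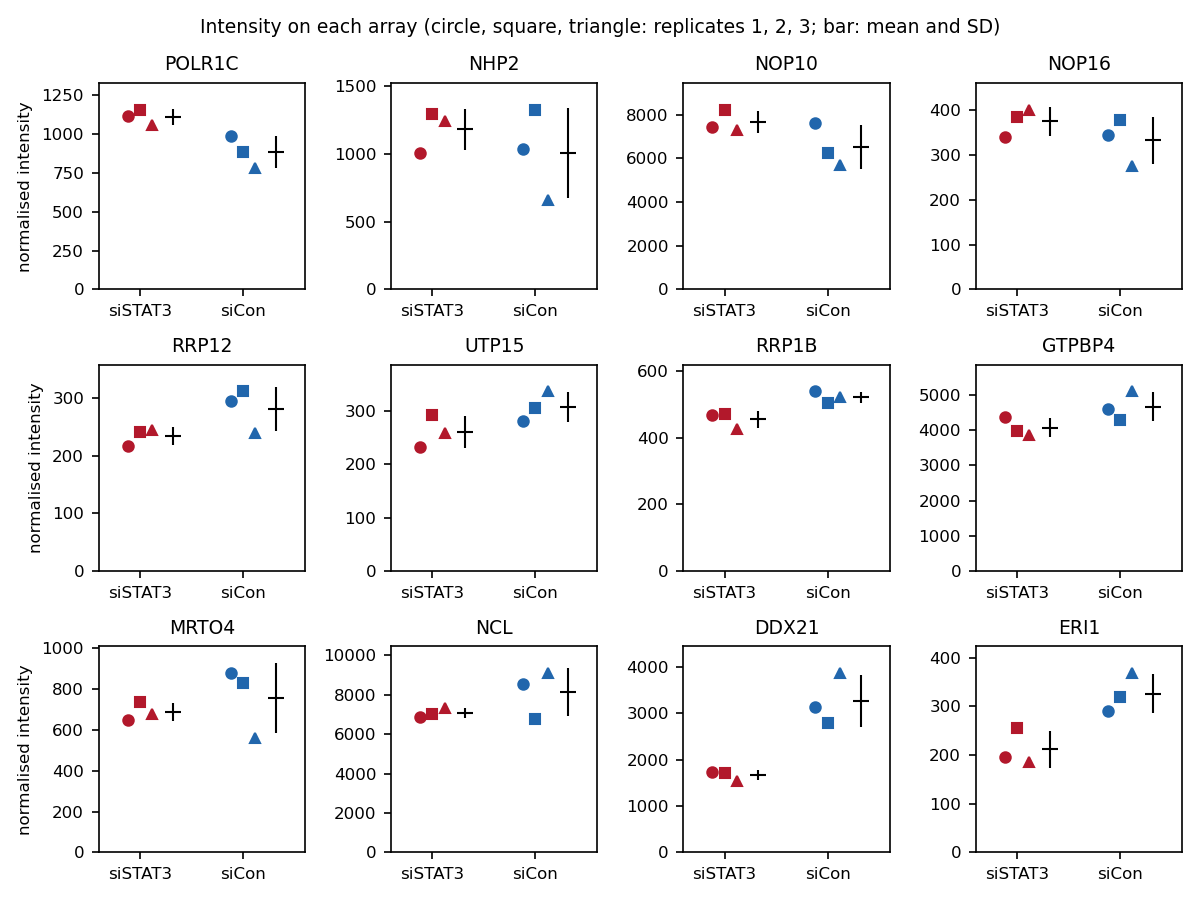
Normalised intensity (vertical axis, from 0) of 10 factors and of DDX21 and ERI1 on each array, siSTAT3 in red left of siCon in blue; symbols are replicates 1, 2 and 3, and bars give mean and SD. DDX21 sits at 1538 to 1735 on siSTAT3 arrays and 2779 to 3866 on siCon arrays, while most of the nucleolar factors overlap.

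Single arrays also moved other named factors by over 1.5 times, none of them called. With 1 array left out in turn, the log2 change ran from 0.043 to 0.19 for POLR1A, from -0.12 to -0.018 for NPM1, from -0.26 to -0.076 for NOP58 and from -0.32 to -0.16 for UTP15. It ran from -0.16 to -0.054 for BOP1, from -0.26 to -0.13 for GTPBP4 and from -0.28 to -0.11 for MYBBP1A. For NOP56 it ran from -0.20 to -0.014. Each of these factors kept its sign in these 6 fits.

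The factors, like all genes, were more variable among control arrays. The median within-group SD of log2 intensity was 0.09 in siSTAT3 and 0.15 in siCon over the factors, against 0.10 in siSTAT3 and 0.14 in siCon over all genes, and 27 of 43 factors (62.8%) had the larger SD in siCon, as did 63.2% of all genes. The siCon replicate 3 array was the lowest of the 6 for 15 factors (34.9%), against 25.8% of all genes. That array was the highest for 11 factors (25.6%), against 23.2% of all genes. The siCon replicate 1 array was the lowest for 0 factors, against 14.8% of all genes. It was the highest for 10 factors (23.3%), against 15.3% of all genes. Leaving out siCon replicate 3 moved the factors' median log2 change to -0.08 and changed the sign of 10 of them. In that fit 18 factors lay above 0 and 25 below, 12 did not overlap (11 lower, 1 higher) where 30.6% of all genes did not overlap, and still none passed, where 2.88% of all genes did.

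The E-box was set against the changes as a description only. The 15 factors with CACGTG had a median log2 change of 0.03, ranging from -0.22 to 0.24, and the 21 without it a median of -0.03, ranging from -0.24 to 0.33. MYC, which binds this hexamer, was 1267, 1353 and 1348 on siSTAT3 arrays, against 1669.7, 1333 and 1705 on siCon arrays, with overlap and a log2 change of -0.24 (interval -0.48 to 0.01, limma adjusted p = 0.44). Here too 1 siCon array, replicate 2, lay within the siSTAT3 range.

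Of 145 other ribosome biogenesis factors listed by role, 138 were tested. In the main fit 2 of these 138 fell and none rose, where 1.46% of all genes passed (1.07% lower). The median log2 change of the 138 was -0.03, and 13.8% of them had groups without overlap, where 17.2% of all genes did. Neither share stood above that of all genes when calls in either direction were counted. As none rose, the share that fell stood above the 1.07% of all genes, on 2 genes. DDX21, a nucleolar RNA helicase that promotes ribosomal RNA transcription and processing, was 1735, 1708 and 1538 on siSTAT3 arrays, against 3125, 2779 and 3866 on siCon arrays. Its groups lay far apart, by a log2 change of -0.96 ± 0.12 (SE, limma adjusted p = 0.00088, n = 3 each), and it passed under each alternative run. ERI1, an exoribonuclease that trims the 5.8S ribosomal RNA and histone transcripts, had 1 probe above the filter, at 195, 256 and 186 on siSTAT3 arrays, against 290.3, 318 and 369 on siCon arrays (-0.63, limma adjusted p = 0.029). Its call was lost without siSTAT3 replicate 1 (adjusted p = 0.196), without siSTAT3 replicate 3 (0.218) and under median scaling (0.0593), all in limma. A second ERI1 probe, ILMN_1861091, lay below the filter at 76.6, 88.9 and 99.2 on siSTAT3 arrays, against 74.96, 95.6 and 96.0 on siCon arrays, and gave -0.0084 with overlap. The interval of no nucleolar factor reached the size of the DDX21 change.

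By set, the median was -0.10 over 16 further genes of RNA polymerase I transcription, -0.04 over 37 small subunit factors, 0.03 over 40 large subunit factors, 0.01 over 12 late maturation and export genes, 0.03 over 15 exosome and nuclease genes and -0.04 over 18 cofactors of ribosomal RNA and small nucleolar particles. In the main fit DDX21 was the 1 large subunit factor called and ERI1 the 1 nuclease called. The export GTPase RAN, at 1002, 1102 and 863 on siSTAT3 arrays against 1200.01, 1419 and 1833 on siCon arrays, came nearest among the rest (-0.57, limma adjusted p = 0.065), and was named after its values were seen.

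**Figure D5:**
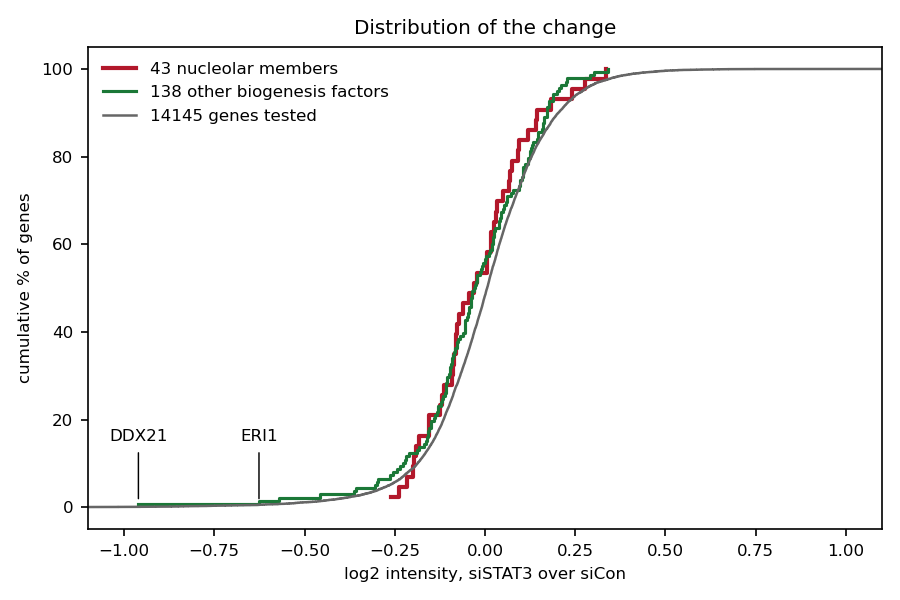
Cumulative percent of genes (vertical axis) by log2 change, siSTAT3 over siCon (horizontal axis), for the 43 factors (red), the 138 other biogenesis factors tested (green) and all 14145 genes (grey, values beyond the axis not drawn). The red curve spans -0.26 to 0.33 and runs beside the grey one, while DDX21 and ERI1 lie at -0.96 and -0.63.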

How the data were processed

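Biotin-labelled cRNA was hybridised to Illumina bead arrays, per the labels' protocols. The authors deposited unnormalised probe intensity and processed intensity; BeadStudio is named, without a version, in the submitters' processing notes, and no source used here states how background was treated. The processed columns share a median of 94.2, on a linear scale, and keep each array's probe order. How they were normalised does not follow from this alone.

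Unnormalised intensity was quantile-normalised, without background subtraction since no detection p-values were at hand, and taken to log2 (limma 3.58.1, R 4.3.3). Of 48803 probes, 28098 had 1 gene symbol, 13 several and 20692 none; 28059 symbols were updated by Entrez ID and 14 by accession (RefSeq, GRCh38.p14), and 25 were kept. A probe stayed if its mean exceeded the 40th percentile of probe means (intensity 89.9), and the brightest passing probe represented each gene. Groups were compared by lmFit and eBayes, two-sided, over 14145 genes with Benjamini-Hochberg adjustment. The procedure was tested on simulated data. Precision is limited by 3 arrays a group.

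The members, roles and lists were chosen with earlier results of these data known, so the members were not tested as a list. Every member was accounted for. Those named with full values were those past the threshold, the 3 largest changes each way, the 2 smallest p-values per role, the 3 brightest and 3 dimmest, and those whose probes differed in sign. The alternatives were median scaling, the processed values, normexp with an offset of 50, no filter and a 60th percentile filter. Others were the mean of a gene's probes, every probe on its own and a block for the replicate number. The rest were array weights, robust variance with an intensity trend, and each array left out.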

Additional observations from a re-analysis of the deposited data

How the results depend on the processing

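Under all 16 alternatives, which include leaving out each array, no tested factor passed the threshold in limma. The 60th percentile filter left 42 of the 43 factors to test. STAT3 passed with a log2 change between -2.15 and -1.81. An unadjusted limma p under 0.05 was found for 1 to 5 factors. The matching share over all genes, 12.1% in the main fit, was not counted for the alternatives. Whether 1 to 5 factors is many or few in those fits therefore cannot be said. Over all genes 207 passed, against 437 with array weights and 61 to 407 with 1 array left out. Of the factors, 5 did not overlap between groups, against 2 under median scaling, 3 with the mean of a gene's probes and 8 to 12 with 1 array left out. In the same order, 17.2%, 16.3%, 16.9% and 25.3% to 30.6% of all genes did not overlap. Their median was -0.03, against -0.071 with array weights, -0.065 with the mean of probes and -0.083 to -0.0013 with 1 array left out. Other biogenesis factors past the threshold numbered 2, against 1 under median scaling, 3 with every probe on its own and 6 with array weights. With 1 array left out they numbered 1 to 3. In the same order, 1.46%, 0.976%, 1.2%, 3.09% and 0.431% to 2.88% of all genes passed. The 6 were DDX21, ERI1, DDX24, POLR1G, RAN and RIOK3, of which RIOK3 was higher in the main fit (0.34, not called there). DDX52 joined DDX21 and ERI1 with every probe on its own.

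Among the factors chosen by the naming rule, signs turned for 6: LYAR, NOP2, POLR1B, WDR12, TCOF1 and UTP20. MRTO4, named outside that rule, was 0.0097 without siCon replicate 1, against -0.11. LYAR was 0.015 under median scaling. With the mean of probes NOP2 was -0.15 and POLR1B -0.065. With array weights WDR12 was 0.045, TCOF1 -0.074, NOP2 -0.032, POLR1B -0.032 and UTP20 -0.00061. With 1 array left out the range was -0.20 to 0.071 for LYAR, -0.090 to 0.13 for NOP2, -0.085 to 0.060 for POLR1B, -0.12 to 0.14 for TCOF1, -0.027 to 0.18 for UTP20 and -0.13 to 0.11 for WDR12. The cause was not tested.

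With the replicate block 283 genes and 0 factors passed. Deviations of same-numbered arrays had correlations of 0.0486, 0.179 and 0.0697 for numbers 1 to 3. Each array correlated best with its own number. The margins were small for siSTAT3 1 (0.0254 with siCon 3) and siSTAT3 3 (0.0314 with siCon 1). The design gives no pairing, and these values cannot tell whether there was one. Probes near background, among them those of NPM1, TCOF1, POLR1A, WDR3 and MYBBP1A, limit what can be seen of those genes.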
